A study of Mus musculus with 6 samples.

Results

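Glycolysis, glycogen storage and the pentose phosphate path were examined through 36 genes in the RNA of quiescent muscle stem cells (qMuSCs). The genes were taken by name from the 31053 genes of the count table. They comprise 4 transporters of glucose and lactate, 9 genes of upper and 7 of lower glycolysis, 2 subunits of lactate dehydrogenase, 4 bifunctional regulators of phosphofructokinase, 6 genes of glycogen metabolism and 4 of the pentose phosphate path. The rule that chose them uses no measured value. Of the 36 genes, 32 had a mean normalized count above 10 and were tested among 11633 genes of the whole table, and 4 (Aldoc, Pgk1, Pfkfb1 and Pfkfb2) fell under that minimum and are given as counts.

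Glycolysis splits glucose into pyruvate, glycogen stores glucose for later use, and the pentose phosphate path draws glucose 6-phosphate away to make NADPH and ribose. Several steps are served by more than one gene. Adult muscle fibers use their own isoforms, among them Pfkm (phosphofructokinase), Pgam2 (phosphoglycerate mutase), Eno3 (enolase) and Pygm (glycogen phosphorylase). Other cells use other forms, among them Pfkl or Pfkp, Pgam1, Eno1 and, for glycogen phosphorylase, Pygl (the liver form) or Pygb (the brain form). Quiescent muscle stem cells are known to rely largely on fatty acid oxidation and to raise glycolysis once they are activated.

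Cells were sorted by FACS for nuclear GFP under Pax7 from hindlimb muscles of 3 WT and 3 cD2KO mice aged 3 to 4 months, and each mouse gave a library. WT mice were Pax7nGFP/+;Pax7+/+;Dio2Fl/Fl and cD2KO mice were Pax7nGFP/+;Pax7-CreERT2/+;Dio2Fl/Fl. Both groups received tamoxifen and both carried floxed alleles of Dio2, which encodes type 2 deiodinase (D2), the enzyme that makes active thyroid hormone inside the cell. Only the cD2KO mice carried the tamoxifen-dependent Cre, driven by Pax7, so the Cre allele and the loss of Dio2 cannot be told apart. The comparison asks how the RNA of qMuSCs differs when D2 is depleted, and the study describes this depletion as partial. Values are given as CPM (counts scaled to a library of 1e6, with TMM factors) in the order c124, c129 and c130 for WT and fl125, fl126 and fl128 for cD2KO.

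Libraries held 2184073 to 3897787 counts, and 3 counts corresponded to 0.773 to 1.37 CPM. Dio2 itself had 21, 5 and 10 counts in WT and 15, 5 and 1 in cD2KO. The highest Dio2 level of all 6 libraries (6.83 CPM) was in the library labelled fl125, against that label, with c124 of WT next (5.41 CPM). These levels rest on few counts, and results are also given without fl125. The labelled cell type was present: Pax7 was at 411, 213 and 434 CPM in WT and 691, 455 and 316 CPM in cD2KO. RNA of other cells was present too. Calls are at an unadjusted p under 0.05, where 5.34% of all 11633 genes tested were called higher and 6.62% lower. Markers of mural cells (10 genes, 5 called higher) summed to 5912 to 10050 CPM in WT and 11920 to 17700 in cD2KO, led by the contractile genes Acta2 (up to 7938 CPM) and Myh11 (up to 6127 CPM), whereas the log2 fold changes of Rgs5 (0.0025), Pdgfrb (−0.06), Abcc9 (−0.23) and Kcnj8 (−0.36) were near or below 0 and not called. Markers of immune cells (10 genes, 4 called lower, Ptprc and Adgre1 among them) summed to 3325 to 5810 CPM in WT and to 189, 1721 and 1949 CPM in cD2KO. Endothelial markers (10 genes, 6 called lower, including Pecam1, Cdh5 and Kdr) summed to 262 to 388 CPM against 206 to 262, although Esam was above WT in every cD2KO mouse (0.32 on the log2 fold change scale, not called) and Tek was at 0.04. Fibroadipogenic markers (8 of 10 tested, 2 called lower) summed to 3870 to 6314 against 2372 to 5141. None of the listed marker genes was at 0 in every mouse. The part of these lists in the differences below was not tested.

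Promoters are shown here for the muscle isoforms with a single RefSeq start site, since the muscle isoforms are the genes singled out for comparison, and for Hk2, the gene of the 36 called lower. Each line gives the 250 bases before the RefSeq start site in GRCm38.p6, read 5′ to 3′ on the strand of the gene, at chr19:6384158-6384407 on the plus strand for Pygm, chr11:5803797-5804046 on the minus strand for Pgam2, chr11:70656926-70657175 on the plus strand for Eno3 and chr6:82774455-82774704 on the minus strand for Hk2. Capitals mark matches on either strand to AGGTCA (the half-site of thyroid hormone receptors), ACGTG (the core of the hypoxia response element, also part of some E-boxes) or CAGCTG (an E-box that myogenic factors bind). A match to ACGTG on the opposite strand reads CACGT.
Pygm: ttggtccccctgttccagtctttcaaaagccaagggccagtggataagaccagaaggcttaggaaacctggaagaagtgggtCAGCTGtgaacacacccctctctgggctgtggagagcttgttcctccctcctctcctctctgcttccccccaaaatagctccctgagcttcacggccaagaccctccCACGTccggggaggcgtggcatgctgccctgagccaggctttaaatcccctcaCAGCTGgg
Pgam2: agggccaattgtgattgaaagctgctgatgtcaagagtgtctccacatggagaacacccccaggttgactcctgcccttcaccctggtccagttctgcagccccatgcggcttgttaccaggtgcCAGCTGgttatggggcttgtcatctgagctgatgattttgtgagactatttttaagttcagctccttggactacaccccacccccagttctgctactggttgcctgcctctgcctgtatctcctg
Eno3: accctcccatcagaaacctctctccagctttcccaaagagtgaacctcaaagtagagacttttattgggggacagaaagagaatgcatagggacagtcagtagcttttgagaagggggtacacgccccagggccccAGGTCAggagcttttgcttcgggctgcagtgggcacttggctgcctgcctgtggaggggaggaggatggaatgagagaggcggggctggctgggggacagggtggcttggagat
Hk2: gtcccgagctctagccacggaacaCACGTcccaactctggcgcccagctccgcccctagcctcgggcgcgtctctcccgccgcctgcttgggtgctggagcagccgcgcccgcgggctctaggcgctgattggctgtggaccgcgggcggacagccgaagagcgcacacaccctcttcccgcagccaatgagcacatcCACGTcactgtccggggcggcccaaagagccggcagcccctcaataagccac

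CAGCTG stood at −168 and −8 in Pygm and at −125 in Pgam2, counted to the left base of the match from the start site. In Eno3, AGGTCA stood at −114. Hk2 held ACGTG at −226 and −52, and Pygm held it at −61. The fourth muscle isoform, Pfkm, has 4 start sites and is not printed. Before them stood ACGTG at −136 and −135 (a CACGTG read on both strands) and at −244, and AGGTCA at −181, each in a window of its own start. Over 300 bases (250 before the start and 50 from it on), 35 of the 36 genes had 54 windows, several of them overlapping starts of the same gene. AGGTCA was in 18.5% of these windows and in 16.3% of all 32851 windows. CAGCTG was in 22.2% against 16.3%, and the site of Mef2 factors (CTA and TAG with 4 bases between them) in 3.70% against 3.69%. ACGTG was in 42.6% against 19.6%, in 19 of the genes, including Hk1, Hk2, Ldha, Slc2a1 and Pfkfb3. These motifs were chosen after the expression values were seen, and the matches are descriptions of the sequence alone.

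In cD2KO qMuSCs, 4 of the 32 tested genes were higher and 1 was lower at an unadjusted p under 0.05, the line the study used. The genes that rose were Pygm, Pfkm, Aldoa and Pfkl, and the gene that fell was Hk2. The 4 higher genes make up 12.5% of those tested, where 5.34% of all 11633 genes were called higher, and the 1 lower gene makes up 3.12%, where 6.62% of all genes were called lower. The median log2 fold change (cD2KO minus WT) was 0.09 over the 32 genes and −0.02 over all genes, with 18 of the 32 above 0 and 14 below. After adjustment over all genes by Benjamini-Hochberg, none of the 32 passed 0.05, where 0.00860% of all genes did, and the lowest adjusted p of edgeR's quasi-likelihood test among them was 0.137 (Pygm). The count at that line was also 0 with voom. It was 1 with DESeq2 (Pygm, adjusted p = 0.0314), 1 without the library labelled fl125 (Pygm, adjusted p = 0.0409, edgeR) and 2 without a minimum (Pygm, adjusted p = 0.00702, and Pfkm, adjusted p = 0.0446, edgeR). The share of all genes past that line in these other fits is not given here. These counts therefore cannot be read as particular to Pygm or Pfkm. In sorted samples of this kind, more cells of a type and more RNA of a gene per cell cannot be told apart. The p-values measure the spread between mice, which were 3 in each group.

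The groups did not overlap for 4 genes in the higher direction (Pygm, Pfkm, Pfkl and Gpi1) and 3 in the lower (Hk2, Gapdh and G6pdx), of 32. Over all genes tested, all cD2KO mice lay above all WT mice in 8.05% and below them in 10%, and the shares of the 32 genes were 12.5% and 9.38%.

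**Figure D1:**
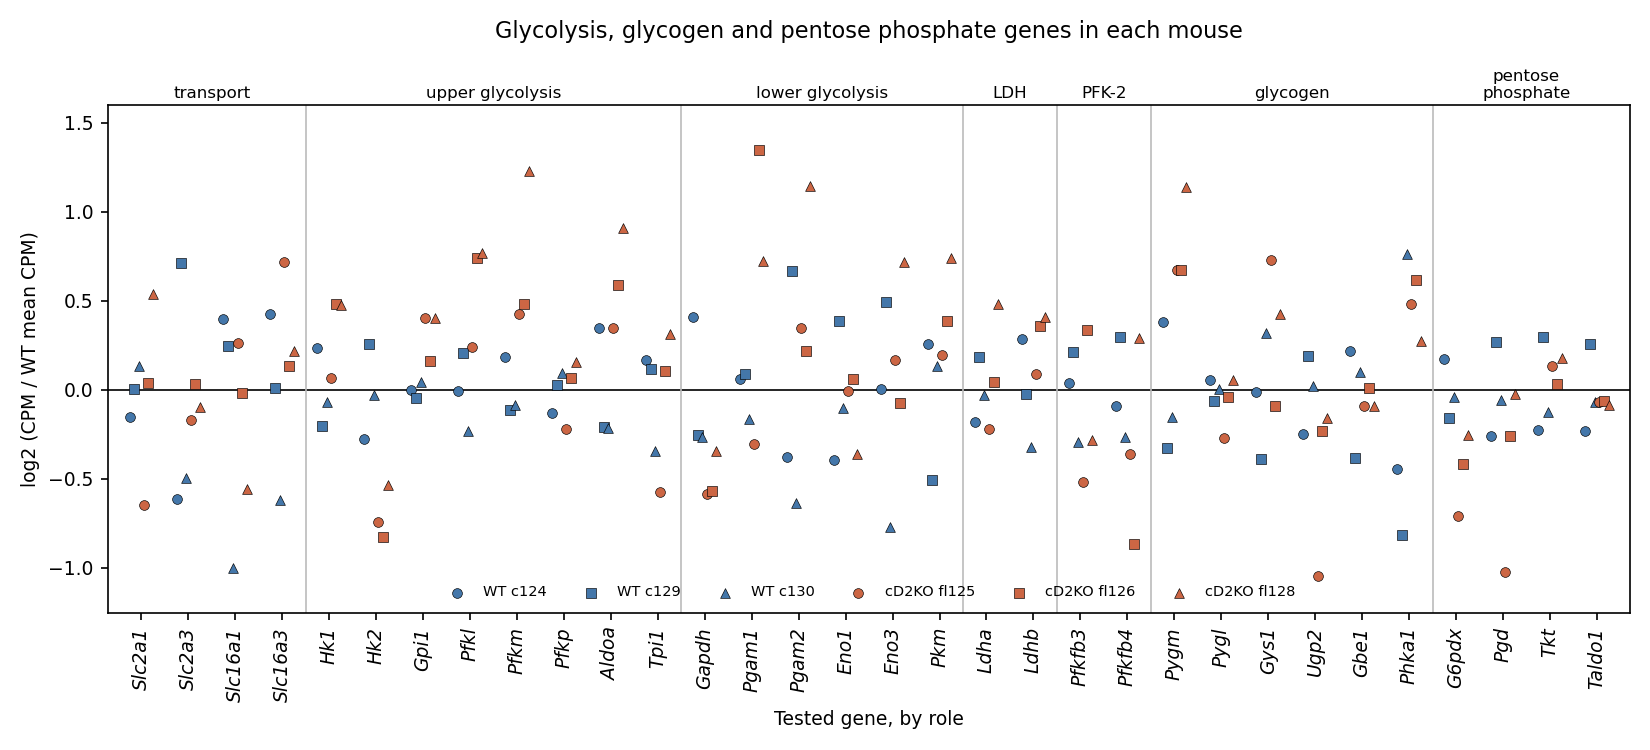
CPM of each of the 32 tested genes in each mouse, on a log2 axis relative to the mean CPM of the WT mice, with the genes ordered by role. All 3 cD2KO mice lie above all 3 WT mice for Pygm, Pfkm, Pfkl and Gpi1 and below them for Hk2, Gapdh and G6pdx, and the groups overlap for the other 25 genes.

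Levels of the tested genes ranged from 8.12 to 796 CPM as means over the 6 mice, with a median of 51.7 CPM. Of the 32, 13 were under 30 CPM and 11 were over 100 CPM. Per kilobase of exon, the highest WT means were those of Aldoa (214 CPM per kb), Pgam2 (179 CPM per kb) and Ldha (106 CPM per kb). Whether the reads cover the whole transcript or mainly its 3′ end is not given in the sources used here, so comparisons of level between genes depend on this length scaling.

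Of the genes that rose, the one with the lowest p acts in glycogen breakdown. Pygm (ENSMUSG00000032648, chr19:6384399-6398459), which encodes the phosphorylase that releases glucose 1-phosphate from glycogen in muscle fibers, was at 202 CPM in c124 and 139.9 CPM in c130, with c129 the lowest (334 counts), and at 248, 248 and 342 CPM in cD2KO. All 3 cD2KO mice lay above the highest WT mouse. Its log2 fold change was 0.84 ± 0.23 (SE; adjusted p = 0.137, edgeR), from a mean of 155 ± 41.2 to 279 ± 54.5 CPM (SD, n = 3 mice each). It was also called with each mouse left out, with log2 fold changes of 0.67 to 1.08. Its adjusted p ranged from 0.00702 to 0.498 over the alternatives. Pygl (ENSMUSG00000021069, chr12:70190811-70231488), the form known from liver, was at 20.6, 18.9 and 19.8 CPM in WT and 16.4, 19.3 and 20.5 CPM in cD2KO, so that the groups overlapped (−0.08 ± 0.30 on the log2 scale, adjusted p = 0.955, edgeR). The other 4 tested glycogen genes were not called. Gys1 (glycogen synthase) was at 0.39, Phka1 (a regulatory subunit of phosphorylase kinase) at 0.47, Gbe1 (the branching enzyme) at −0.06 and Ugp2, which makes the UDP-glucose that glycogen synthase uses, at −0.41 on the log2 fold change scale. Over the 6 glycogen genes the median was 0.17, with 1 called higher and none lower, and it was 0.0687 without c129, 0.31 without c130 and −0.09 at a minimum mean count of 50.

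In upper glycolysis, 8 of 9 genes were tested, with 3 called higher, 1 lower and a median log2 fold change of 0.34. Phosphofructokinase, which commits sugar phosphates to glycolysis, accounted for 2 of the higher genes. Pfkm (ENSMUSG00000033065, chr15:98092589-98132451) was at 52.0, 42.3 and 43.2 CPM in WT and 61.5, 64.0 and 107 CPM in cD2KO, a log2 fold change of 0.76 ± 0.25 (adjusted p = 0.212, edgeR). Pfkl (ENSMUSG00000020277, chr10:77986947-78010083), the form named for liver, was at 27.3, 31.6 and 23.3 CPM in WT and 32.3, 45.7 and 46.7 CPM in cD2KO, a log2 fold change of 0.61 ± 0.26 (adjusted p = 0.383, edgeR). The groups did not overlap for either gene, but the lowest cD2KO mouse, fl125, lay within 1 CPM of the highest WT mouse for Pfkl. Pfkp (ENSMUSG00000021196, chr13:6579768-6648777), the form named for platelets, was at 63.4, 70.5 and 74.1 CPM in WT and 59.7, 72.6 and 77.4 CPM in cD2KO, and its groups overlapped (0.01 ± 0.20, adjusted p = 0.986, edgeR). Reads of Pfkm and Pfkp are uncertain to the extent that their exons overlap Senp1 (Pfkm) and Pitrm1 (Pfkp) on the opposite strand. The use of strand in counting is not given in the sources used here.

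Aldoa (ENSMUSG00000030695, chr7:126795234-126800751), the aldolase that cleaves fructose 1,6-bisphosphate and the form that muscle uses, had the highest mean CPM of the 36 genes. It was at 794, 541 and 538 CPM in WT and 793, 940 and 1173 CPM in cD2KO, a log2 fold change of 0.63 ± 0.23 (adjusted p = 0.273, edgeR). The WT mouse c124 and the library labelled fl125 had nearly the same level, and the other cD2KO mice lay above every WT mouse. A second gene identifier carries the same symbol and had no counts.

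Hexokinase traps glucose in the cell as glucose 6-phosphate, and 2 of its forms were tested. Hk2 (ENSMUSG00000000628, chr6:82725025-82774454), the insulin-responsive form of muscle and fat, was at 52.8, 76.5 and 62.6 CPM in WT and 38.2, 36.1 and 44.2 CPM in cD2KO. Every cD2KO mouse lay below every WT mouse, with a log2 fold change of −0.69 ± 0.23 (adjusted p = 0.221, edgeR). The immune marker sum was likewise lower in each cD2KO mouse, and both were highest in c129 in WT and in fl128 in cD2KO. The lowest library was fl126 for Hk2 and fl125 for that sum. The part of immune cell RNA in the difference of Hk2 was not tested. Hk1, the form present in most cells, was at 117 to 158 CPM in WT and 141 to 189 CPM in cD2KO and was not called (0.35 ± 0.20, adjusted p = 0.530, edgeR). Whether the differences of Hk1 and Hk2 differ from each other was not tested. Gpi1 (ENSMUSG00000036427, chr7:34201330-34230336), which turns glucose 6-phosphate into fructose 6-phosphate, was at 163, 158 and 169 CPM in WT and 215, 183 and 215 CPM in cD2KO. Its groups did not overlap, yet it was not called (0.33 ± 0.18, adjusted p = 0.517, edgeR). Tpi1, the triose phosphate isomerase, had a log2 fold change under 0.01 in size and overlapping groups.

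**Figure D2:**
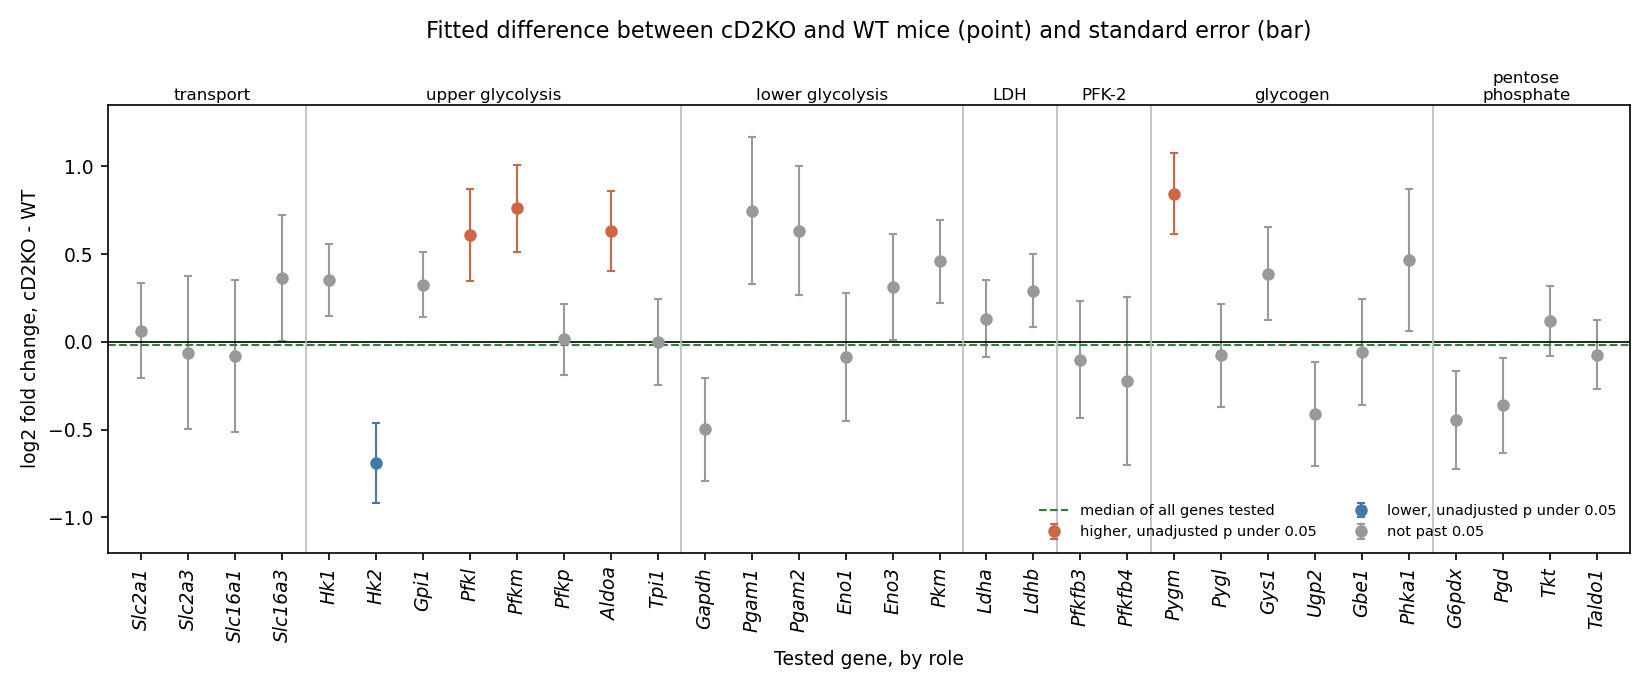
Log2 fold change (cD2KO minus WT, edgeR) of each of the 32 tested genes as a point with its standard error as a bar, ordered by role, with the median of all 11633 genes as a dashed line at −0.02. Pygm, Pfkm, Aldoa and Pfkl are marked as called higher and Hk2 as called lower, and the other 27 genes are marked as not called.

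None of the 6 tested genes of lower glycolysis was called, with a median log2 fold change of 0.39, which was 0.25 without c130 and 0.17 without fl128. The gene of this group with the lowest p was Pkm (pyruvate kinase), which was at 506, 297 and 464 CPM in WT and 484, 553 and 707 CPM in cD2KO (0.46 ± 0.24, adjusted p = 0.479, edgeR). Gapdh (ENSMUSG00000057666, chr6:125161715-125166467), the dehydrogenase that makes NADH in this path, was at 39.9, 25.2 and 25.1 CPM in WT and 20.0, 20.3 and 23.7 CPM in cD2KO. All of its cD2KO values lay below the WT values, and the difference was not called (−0.50 ± 0.29, adjusted p = 0.541, edgeR).

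Phosphoglycerate mutase and enolase were each represented by a muscle and a ubiquitous form. Pgam2 (ENSMUSG00000020475, chr11:5801640-5803733) was at 116, 239 and 96.8 CPM in WT and 191, 175 and 333 CPM in cD2KO (0.63 ± 0.37, adjusted p = 0.549, edgeR). Pgam1 (ENSMUSG00000011752, chr19:41911923-41918660) was at 10.6, 10.8 and 9.05 CPM in WT and 8.20, 25.8 and 16.7 CPM in cD2KO (0.75 ± 0.42, adjusted p = 0.517, edgeR). Neither was called, and the groups of both overlapped, as c129 was high among the WT mice for Pgam2 and the library labelled fl125 was the lowest of all for Pgam1. Eno3 (ENSMUSG00000060600, chr11:70657202-70662513) was at 109, 153 and 63.7 CPM in WT and 122, 103 and 179 CPM in cD2KO (0.31 ± 0.30, adjusted p = 0.750, edgeR). Eno1 (ENSMUSG00000063524, chr4:150236721-150248879) was at 10.8, 18.6 and 13.2 CPM in WT and 14.1, 14.8 and 11.1 CPM in cD2KO (−0.09 ± 0.36, adjusted p = 0.959, edgeR). The WT range held 2 of the 3 cD2KO mice for Eno3 and all 3 for Eno1.

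Transport, lactate dehydrogenase, the regulators of phosphofructokinase and the pentose phosphate path held no called gene. Among the transporters, the log2 fold changes were 0.06 for Slc2a1 and −0.06 for Slc2a3, which bring glucose into the cell, −0.08 for Slc16a1 and 0.36 for Slc16a3, which carry lactate, and all groups overlapped. Ldha, the subunit named for muscle, was at 308 to 397 CPM in WT and 300 to 488 CPM in cD2KO with a log2 fold change of 0.13. Ldhb, the subunit named for heart, was at 116 to 177 CPM in WT and 154 to 192 CPM in cD2KO with a log2 fold change of 0.29. Of the enzymes that make and remove fructose 2,6-bisphosphate, the activator of phosphofructokinase, Pfkfb3 was at −0.10 and Pfkfb4 at −0.22.

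In the pentose phosphate path the median log2 fold change was −0.22 over 4 genes, and it was −0.0411 without c129 and −0.0629 without the library labelled fl125. G6pdx (ENSMUSG00000031400, chrX:74409483-74429194), the enzyme of its entry step, was at 32.7, 26.0 and 28.2 CPM in WT and 17.8, 21.7 and 24.3 CPM in cD2KO. The groups did not overlap, and the difference was not called (−0.44 ± 0.28, adjusted p = 0.576, edgeR). Pgd, the next dehydrogenase of the path, was at −0.36, and the non-oxidative enzymes Tkt and Taldo1 were at 0.12 and −0.07, each with overlapping groups.

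The 4 muscle isoforms were set against counterparts termed ubiquitous here, although Pygl is the form known from liver. Each comparison was a ratio of counts within a mouse, which does not depend on library scaling. All 4 muscle isoforms had a log2 fold change above 0, with 2 of 4 called higher and a median of 0.70. Over all 11633 genes tested, 5595 were above 0 and 5.34% were called higher. The 5 counterparts, which do not include Pygb, had a median of 0.01, with 1 called higher (Pfkl). The 28 tested genes other than the muscle isoforms had a median of 0.01, with 2 called higher and 1 lower.

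The log2 ratio of Pygm to Pygl was 3.26, 2.66 and 2.78 in WT and 3.84, 3.64 and 4.02 in cD2KO, with every cD2KO mouse above every WT mouse. The difference of the means was 0.93 ± 0.21 (SE, n = 3 mice each). This separation is relative to Pygl alone. Pygb, the brain form of phosphorylase, had a higher WT mean than Pygl (71.6 against 19.8 CPM). It was itself called higher in cD2KO (0.68 ± 0.20, adjusted p = 0.167, edgeR), and the ratio of Pygm to Pygb was not tested. The ratio of Pfkm to Pfkp also separated the groups, at −0.28, −0.73 and −0.77 in WT and 0.04, −0.18 and 0.47 in cD2KO, a difference of 0.70 ± 0.25. For both pairs the two-sided exact permutation test gave p = 0.1, the smallest that 3 mice against 3 allow, and 0.25 after adjustment over the 5 pairs. Against Pfkl, the ratio of Pfkm was 0.73 ± 0.28 in WT and 0.86 ± 0.36 in cD2KO (SD, n = 3 mice each; exact permutation p = 0.6), as both genes were higher in cD2KO. The ratio of Pgam2 to Pgam1 was 3.70 ± 0.59 and 3.80 ± 0.92 (exact permutation p = 0.9). That of Eno3 to Eno1 was 2.82 ± 0.55 and 3.24 ± 0.62 (exact permutation p = 0.5), and the groups overlapped for these 3 pairs. After division by exon length, the muscle form exceeded the other in WT means for all 5 pairs. The excess was 1.41 (Pfkm to Pfkp) to 4.94 (Pgam2 to Pgam1) on the log2 scale. By counts alone, Pfkp exceeded Pfkm in every WT mouse. The excess depends on the length scaling, as the coverage of the transcripts is not given. For Pgam2 (4.94) and Eno3 (4.45) it also rests on the counts of Pgam1 and Eno1. These share sequence with other genes (36.2% and 26.0%, described below), so their levels are uncertain. The part of shared sequence and of coverage in these ratios was not tested.

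**Figure D3:**
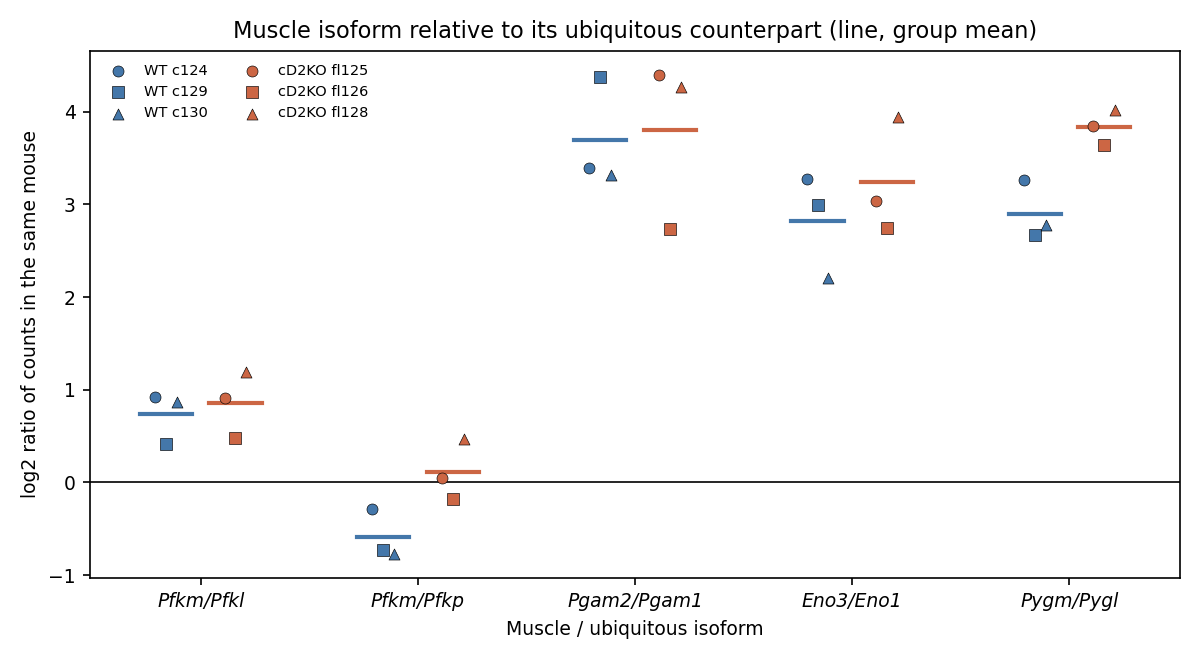
Log2 ratio of the counts of a muscle isoform to those of its ubiquitous counterpart in each mouse, for the 5 pairs, with a line at each group mean. The groups separate for Pfkm/Pfkp and Pygm/Pygl, each with the cD2KO mice higher, and overlap for the other 3 pairs.

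RNA of muscle fibers was present in all libraries, and its level differed between mice. All 17 fiber markers had a log2 fold change above 0, as did 5595 of all 11633 genes tested. Of the markers, 2 were called higher (Myh2 and Myl1), where 5.34% of all genes were. The markers had a median of 0.52. That median was 0.25 without fl128, 0.33 without c130, 0.78 without the library labelled fl125 and 0.79 without c129. The markers summed to 4962, 6591 and 3148 CPM in WT and 5377, 6307 and 10410 CPM in cD2KO, and these groups overlapped. Acta1, the actin of fibers, was at 926, 1405 and 535 CPM in WT and 1140, 1307 and 2131 CPM in cD2KO. The muscle creatine kinase Ckm was at 177 to 425 CPM and 242 to 595 CPM, and the myosin light chain Mylpf was at 320 to 665 CPM and 476 to 1203 CPM. The mouse fl128 was the highest for the fiber markers as a sum and for Pygm, Pfkm, Aldoa, Pgam2 and Eno3, and c129 was the highest WT mouse for the fiber sum, Pgam2 and Eno3. Pygm, Pfkm and Aldoa had another order in WT, with c124 the highest. In WT the mural marker sum was also highest in c124 (10050 CPM), and in cD2KO it was highest in fl128 (17700 CPM). Its groups did not overlap, and it ranked the mice as Pfkm did. The part of mural cell RNA in these genes was not tested. The 4 muscle isoforms summed to 344 to 558 CPM in WT and 590 to 961 CPM in cD2KO.

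Relative to the fiber marker sum of the same mouse, the differences in mean log2 ratio (cD2KO minus WT) were 0.27 for Pygm, 0.12 for Pfkm, 0.09 for Pgam2, −0.23 for Eno3 and 0.05 for Aldoa. The groups overlapped for each of these ratios. This scaling was chosen after the values were seen and is a description without a test. Markers of muscle stem cells, of which Itga7, Cdh15 and Myf5 were called higher, summed to 1416 to 1969 CPM in WT and 1704 to 3025 CPM in cD2KO, with overlapping groups and a median log2 fold change of 0.43. Of these 10 markers, 8 were above 0, and Sdc4 (−0.46) and Vcam1 (−0.09) were below 0 and not called.

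**Figure D4:**
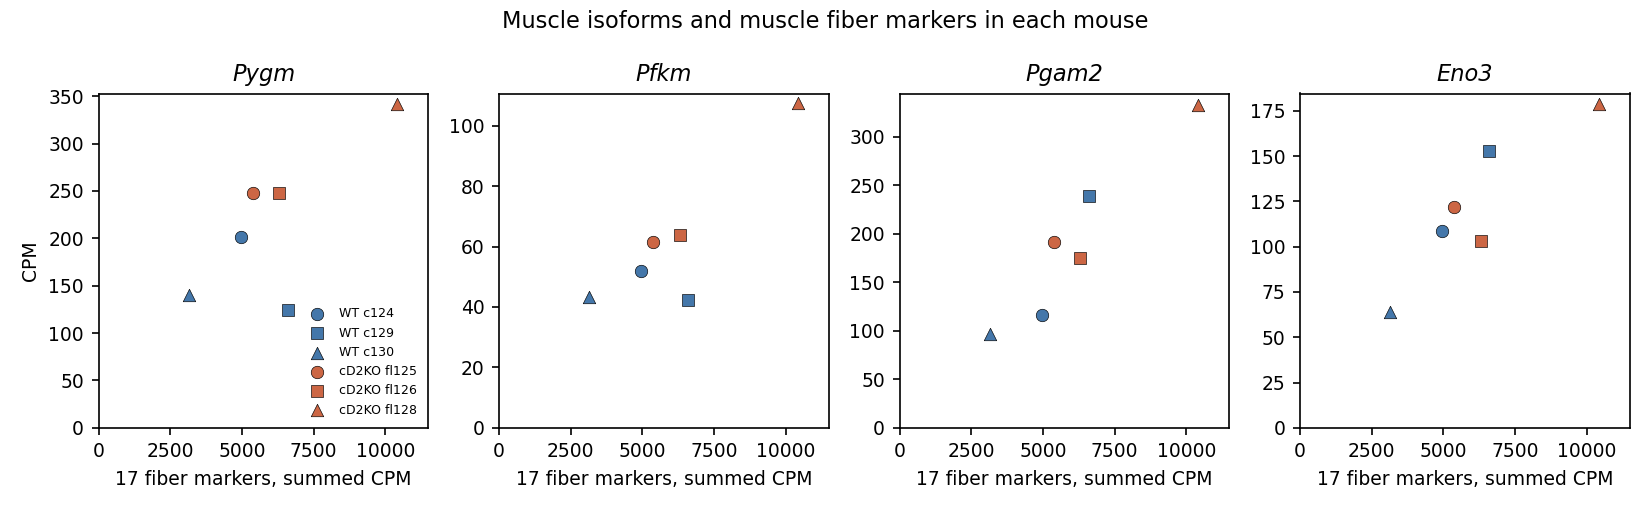
CPM of the muscle isoforms Pfkm, Pgam2, Eno3 and Pygm against the summed CPM of 17 muscle fiber markers in each mouse. The mouse fl128 is at the far right with 10410 CPM of fiber markers and is the highest for each isoform, and the WT mouse c129 has more fiber marker RNA (6591 CPM) than fl125 and fl126 but less Pygm and Pfkm.

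Calls depended on single mice. Without the library labelled fl125, 7 of the 32 genes were called higher (Pgam1, Pfkl, Aldoa, Pkm, Pygm, Pfkm and Hk1) and Hk2 was called lower, where 8.03% of all genes were then called higher and 7.44% lower. The median log2 fold change of the 32 genes was 0.22 without it. In that fit the log2 fold changes were 0.96 for Pygm, 0.94 for Pfkm, 0.80 for Aldoa, 0.79 for Pfkl and −0.63 for Hk2. Without fl128, Pygm alone was called higher, and Pfkm was at 0.45 and Aldoa at 0.47. Aldoa was also lost without c130, at 0.57. Pfkl was lost without c124, c130, fl126 or fl128, at 0.52 to 0.61. Hk2 was lost without c129, at −0.52, which left no gene called lower. Leaving out c129 added Pgam2 at 1.16 and Eno3 at 0.66 to the genes called higher. Leaving out c130 added Phka1 at 1.10, and leaving out c124 added Pkm at 0.61. For the fits other than the one without fl125, the share of all genes called is not given here.

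**Figure D5:**
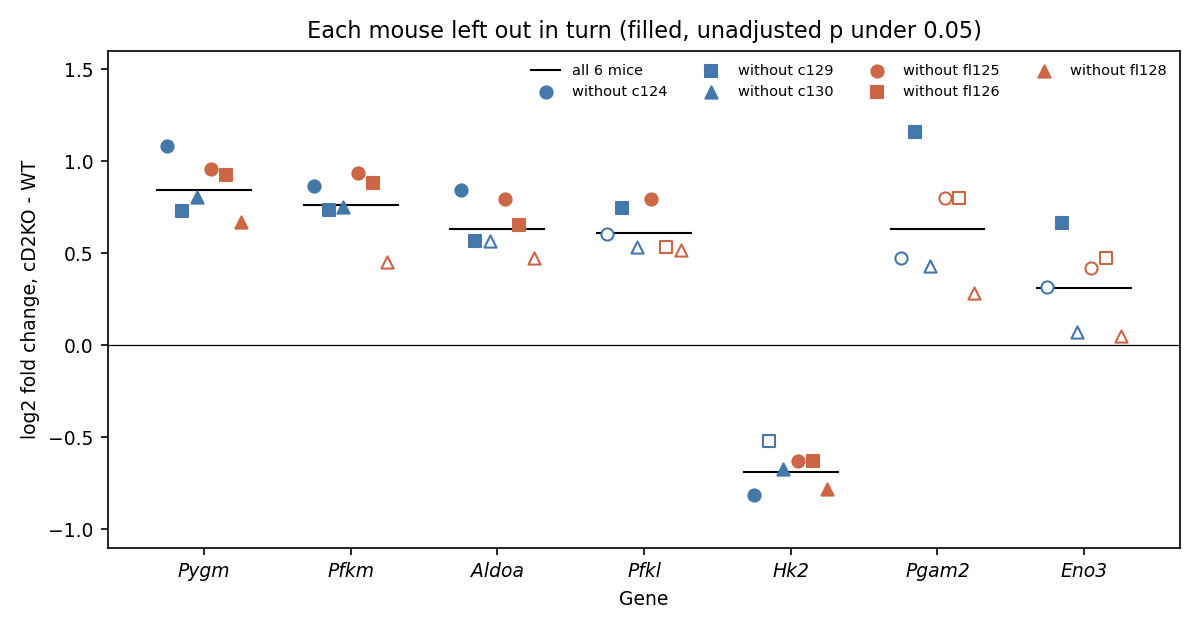
Log2 fold change (cD2KO minus WT, edgeR) with each mouse left out in turn, for the 5 called genes and for Pgam2 and Eno3, with a black line for all 6 mice and filled symbols for an unadjusted p under 0.05. Symbols of Pygm are filled throughout (0.67 to 1.08), and those of Pfkm, Aldoa, Pfkl and Hk2 are open for 1, 2, 4 and 1 of the mice.

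The other genes of these pathways were taken from a list of 69, written by hand, of which 49 were tested. Of these, 6 were higher (12.2%) and 3 were lower (6.12%) in cD2KO, with a median log2 fold change of 0.09, where 5.34% of all genes were called higher and 6.62% lower. Slc2a4, the insulin-dependent glucose transporter of muscle and fat, was at 112, 126 and 123.9 CPM in WT and 168, 179 and 289.9 CPM in cD2KO (0.82 ± 0.23, adjusted p = 0.146, edgeR). Every cD2KO mouse was above every WT mouse, and relative to the fiber marker sum its difference was 0.18 with overlapping groups. In glycogen metabolism, Pygb, the brain form of phosphorylase, was at 74.7, 74.6 and 65.4 CPM in WT and 112, 98.0 and 134 CPM in cD2KO (0.68 ± 0.20, adjusted p = 0.167, edgeR). Ppp1r3c and Ppp1r3d target protein phosphatase 1 to glycogen. Ppp1r3c was at 47.1, 57.2 and 37.9 CPM in WT and 69.7, 75.0 and 118 CPM in cD2KO (0.89 ± 0.25, adjusted p = 0.151, edgeR). Ppp1r3d was at 45.6, 31.9 and 36.9 CPM in WT and 74.2, 51.2 and 71.7 CPM in cD2KO (0.78 ± 0.24, adjusted p = 0.188, edgeR). Hif1a, the transcription factor that raises many glycolytic genes under low oxygen, was at 58.7, 47.5 and 61.3 CPM in WT and 63.8, 88.0 and 93.5 CPM in cD2KO (0.55 ± 0.22, adjusted p = 0.346, edgeR). The groups did not overlap for any of these 4 genes. The sixth of the higher genes, Pck2, the mitochondrial form of phosphoenolpyruvate carboxykinase, was at 0.52.

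Emb, an immunoglobulin-family partner of lactate transporters, had the largest difference of these genes, at 31.4, 47.9 and 34.8 CPM in WT and 3.64, 7.57 and 18.0 CPM in cD2KO (−1.92 ± 0.45, adjusted p = 0.102, edgeR). Each cD2KO mouse was below each WT mouse. Phka2, the liver form of a phosphorylase kinase subunit, was at 23.2, 11.1 and 26.8 CPM in WT and 11.8, 7.57 and 10.7 CPM in cD2KO (−1.03 ± 0.40, adjusted p = 0.325, edgeR), and its groups overlapped. Gaa, the lysosomal enzyme that breaks down glycogen, was at 62.1, 46.8 and 46.6 CPM in WT and 32.8, 30.6 and 38.5 CPM in cD2KO (−0.61 ± 0.24, adjusted p = 0.340, edgeR), and its groups did not overlap. The immune marker sum was lower in each cD2KO mouse than in each WT mouse, like Emb, and both were lowest in the library labelled fl125 and highest in c129. Gaa was also lower in each cD2KO mouse than in each WT mouse and, like that sum, highest in fl128 among the cD2KO mice. In WT, unlike that sum, Gaa was highest in c124 and Phka2 was lowest in c129. The part of immune cell RNA in the differences of Emb, Phka2 and Gaa was not tested.

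The 4 genes under the minimum had few counts. Aldoc had 14, 5 and 6 counts in WT and 0, 4 and 3 in cD2KO. Pgk1 had 5, 1 and 5 against 3, 1 and 2, Pfkfb1 had 10, 1 and 4 against 1, 7 and 9, and Pfkfb2 had 7, 16 and 3 against 10, 2 and 4. Scaled to depth, Aldoc was at 1.86 to 3.60 CPM in WT and 0 to 1.38 CPM in cD2KO, near the level of 3 counts, and the groups of the other 3 genes overlapped. None of the 4 was called when fitted without a minimum.

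Low counts of Pgk1, Gapdh, Eno1 and Pgam1, which act in every cell, stand beside a property of their sequence. Of the 50-base windows of their GENCODE transcripts, 53.9% in Pgk1, 25.1% in Gapdh, 26.0% in Eno1 and 36.2% in Pgam1 also occur in transcripts of other genes. Pseudogenes were 5 of 5, 213 of 223, 8 of 23 and 4 of 4 of those genes. The leading sharer of Eno1 was Eno1b, which is annotated as protein coding and whose counts are not given here. In the last 500 bases the shares of windows were 7.32%, 63.2%, 68.1% and 0%. Counting tools of this kind commonly leave out reads that map to several places, and the settings are not given in the sources used here. The levels and differences of these genes are therefore uncertain, and the part of the shared sequence in them was not tested. The share was 0.40% in Pygm, 0.03% in Pfkl, 8.83% in Pfkm, 6.43% in Aldoa and 0% in Hk2, Pgam2 and Eno3. It was 25.8% in Pkm, 20.99% in Ldhb, 16.9% in G6pdx and 15.8% in Gpi1. In Pfkp it was 5.1%, and 27.5% in the last 500 bases, shared with Pitrm1.

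By its name, the Cre allele that separates the groups is at Pax7, on chromosome 4. Of the 36 genes, Pgd, Eno1 and Slc2a1 lie on that chromosome, at 9.32, 10.4 and 20.6 Mb from Pax7, and none of them was called.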

How the data were processed

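RNA of sorted qMuSCs of 3 WT and 3 cD2KO mice was extracted with the RNeasy Mini Kit and sequenced by a commercial digital RNA-seq service. Per the submitters' processing notes, the tools were STAR 2.6.0a, HTSeq 0.9.1 and bcl2fastq with the build mm10. The authors deposited raw counts per gene, without normalization. The annotation, use of strand and handling of duplicates are not given in the sources used here. Of 31053 gene identifiers, 30934 were found in GENCODE M21, which gave symbols, coordinates (GRCm38) and exon lengths.

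Genes whose counts, normalized by DESeq2, averaged above 10 over the mice were tested with edgeR 4.0.16 (TMM, quasi-likelihood, robust) in R 4.3.3, with all 6 mice and no covariate, after the script was tested on simulated data. A call was an unadjusted p under 0.05. Adjusted p are Benjamini-Hochberg over the 11633 genes tested. Isoform ratios used counts plus 2 and two-sided exact permutation tests. No 2 libraries agreed within sampling noise (lowest chi-square per degree of freedom 8.66). Alternatives were DESeq2 1.42.0, voom of limma 3.58.1, other scalings, minimums and thresholds, and leaving out each mouse.

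Full values were given for called genes, members of the isoform pairs and genes whose groups did not overlap, and for up to 5 called genes per direction of the wider list. Values of other genes were given by range or fold change. Pkm, Hk1 and Pck2 were added after their values were seen. The 36 genes and all lists were chosen with earlier results of these data known. At 2184073 to 3897787 counts per library, genes near 1 CPM rest on few counts. Errors beyond counting that vary from mouse to mouse are covered by the spread between mice. Errors common to all libraries or to all mice of a group are not. Sequences are from RefSeq (GRCm38.p6). The result of 1 further marker list is not reported here.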

Additional observations from a re-analysis of the deposited data

How the results depend on the processing

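With another test (DESeq2, voom), scaling, minimum or dispersion, the 4 higher genes and the lower gene kept their calls, and 4 to 6 genes were called higher. Pgam2 (0.68) and Pkm (0.49) were added without a minimum. At an adjusted p under 0.05 or under 0.1, 0 genes were called higher and 0 lower by edgeR with all 6 mice and the minimum of 10. Leaving out a mouse gave 1 to 7 genes higher (1 without fl128, 7 without fl125), 0 or 1 lower (0 without c129), 1 to 4 lower in the wider list (1 without c124 or fl126) and a median log2 fold change of 0.0433 to 0.24. Of all genes, 5.34% were called higher and 6.62% lower in the main fit, and 8.03% and 7.44% without fl125. Such shares are not given for the other fits, so changes in these counts cannot be read as particular to these genes.

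The ratio differences ranged from −0.0408 to 0.31 (Pfkm to Pfkl) and −0.20 to 0.63 (Pgam2 to Pgam1) with a mouse left out, and the latter was −0.11 from edgeR's fold changes. Genes near 0 changed sign: Slc2a3 to 0.12 with voom, Pfkp to −0.0199 at a minimum of 50, and Tpi1 to 0.0195 with DESeq2, 0.0199 with its size factors, 0.0362 without a minimum and 2e-04 with edgeR's own filter. With a mouse left out, log2 fold changes ran from −0.26 to 0.35 (Slc2a1), −0.30 to 0.50 (Slc2a3), −0.37 to 0.18 (Slc16a1), −0.0653 to 0.15 (Pfkp), −0.19 to 0.25 (Tpi1), −0.26 to 0.17 (Eno1), −0.0805 to 0.32 (Ldha), −0.39 to 0.10 (Pfkfb3), −0.59 to 0.0166 (Pfkfb4), −0.15 to 0.044 (Pygl), −0.19 to 0.0673 (Gbe1) and −0.18 to 0.10 (Taldo1). The causes were not tested.

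No paired analysis was possible because the mice carry only their own animal numbers, none of them shared between the groups. The depth limits genes under about 1.37 CPM, where 3 counts or fewer are read.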
